A study of Homo sapiens with 27 samples.

Results

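tRNA-Arg-TCT is the isoacceptor family of arginine tRNAs with anticodon TCT, which reads AGA codons. Its members were chosen by name: all isodecoders called Arg-TCT in the deposited cytosolic tRNA tables, which gave 18 pseudouridine (Ψ) sites in 5 isodecoders, of 705 sites in 250 isodecoders in all. An isodecoder is a tRNA sequence that shares its anticodon with others and differs elsewhere. The family was picked from earlier results on the same libraries, in which its levels at positions 28, 36 and 72 had already been seen to differ between knockout and wild-type cells. The calls below are therefore descriptions and not independent evidence. For that reason no p-value is printed for the contrasts that involve the PUS1 knockout or the PUS7 knockout. The p-values printed for the TRUB1 knockout against wild type use the same wild-type libraries and are descriptions as well.

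The samples are HEK293T cells, an established human embryonic kidney line: a PUS1 knockout (PUS1 KO), a PUS7 knockout (PUS7 KO), a TRUB1 knockout (TRUB1 KO), an RPUSD1 knockout (RPUSD1 KO) and the wild type (WT). No drug or other treatment of the cells is labelled, and the labels do not say whether a knockout is 1 clone. Each genotype has 2 treated libraries, which are technical replicates, and 1 untreated library, so that all spreads and p-values measure technical variation and not variation between cultures. In PRAISE, a reagent of the bisulfite type turns Ψ into an adduct that is read as a deletion, and the level of a site is the percentage of covering reads with that deletion. Small RNA was demethylated with the enzyme AlkB before treatment in every genotype. The tables hold no RNA level of the deleted genes, so the knockouts could not be checked from them.

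Ψ is an isomer of uridine that pseudouridine synthases make at set places in tRNA, where it stiffens stems and loops. PUS1 is known for sites at the top of the anticodon stem, among them position 28. PUS7 recognises a short sequence around its sites and is known in yeast for sites in the D arm and in the anticodon of tRNA-Tyr. TRUB1 makes Ψ at position 55 of the T loop. RPUSD1 belongs to the RluA family, whose tRNA sites in human cells are less well described. Position 39, at the loop end of the anticodon stem, is known in yeast as a site of Pus3, an enzyme that was not deleted here. Position 36 is the last base of the anticodon, and position 72 is near the end of the acceptor stem.

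The isodecoders and sites were as follows. tRNA-Arg-TCT-1, -2 and -3 were each listed at positions 28, 36, 39 and 55. tRNA-Arg-TCT-5 was listed at 28, 36 and 39. tRNA-Arg-TCT-4 was listed at 39, 55 and 72 and not at 28 or 36. Position 36 was listed in no other cytosolic tRNA of the tables, with 4 of 4 sites in tRNA-Arg-TCT, and position 72 in 9 tRNAs, the other 8 of them arginine tRNAs as well. At position 28, at position 55 and at position 39 outside tRNA-Arg-TCT-4, the authors' tables give a pair of neighbouring bases, so that the deletion was not resolved to 1 base there.

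By name, 6 nuclear genes of this family matched the RefSeq annotation of GRCh38.p14. The gene for tRNA-Arg-TCT-1 lies on chromosome 1 from 93847573 to 93847657, that for tRNA-Arg-TCT-2 on chromosome 17 from 8120925 to 8121012, and that for tRNA-Arg-TCT-5 on chromosome 6 from 27562184 to 27562270. tRNA-Arg-TCT-3 has 2 genes, on chromosome 9 from 128340076 to 128340166 and on chromosome 11 from 59551294 to 59551379. The gene for tRNA-Arg-TCT-4 lies on chromosome 1 from 159141611 to 159141684. It spans 74 bases, against 85 to 91 bases for the others, whose genes are known to carry an intron next to the anticodon. The mouse counterpart of tRNA-Arg-TCT-4 is known for its expression in the nervous system.

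Depth differed by position. Over the 18 sites and the 4 genotypes with a full table, between 33 and 85575 reads covered a site in a treated library. The untreated libraries had deletions in 0.0801% to 0.545% of reads at these sites. The median SD between the 2 treated libraries of a genotype was 1.20 percentage points and the highest was 7.39 points, at position 55 of tRNA-Arg-TCT-2 in PUS7 KO. Over all 705 sites the median gap between the 2 treated libraries was 1.32 points in PUS7 KO, 0.346 in PUS1 KO, 0.936 in TRUB1 KO and 0.556 in WT. The plot of levels by library shows all of these sites.

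**Figure D1:**
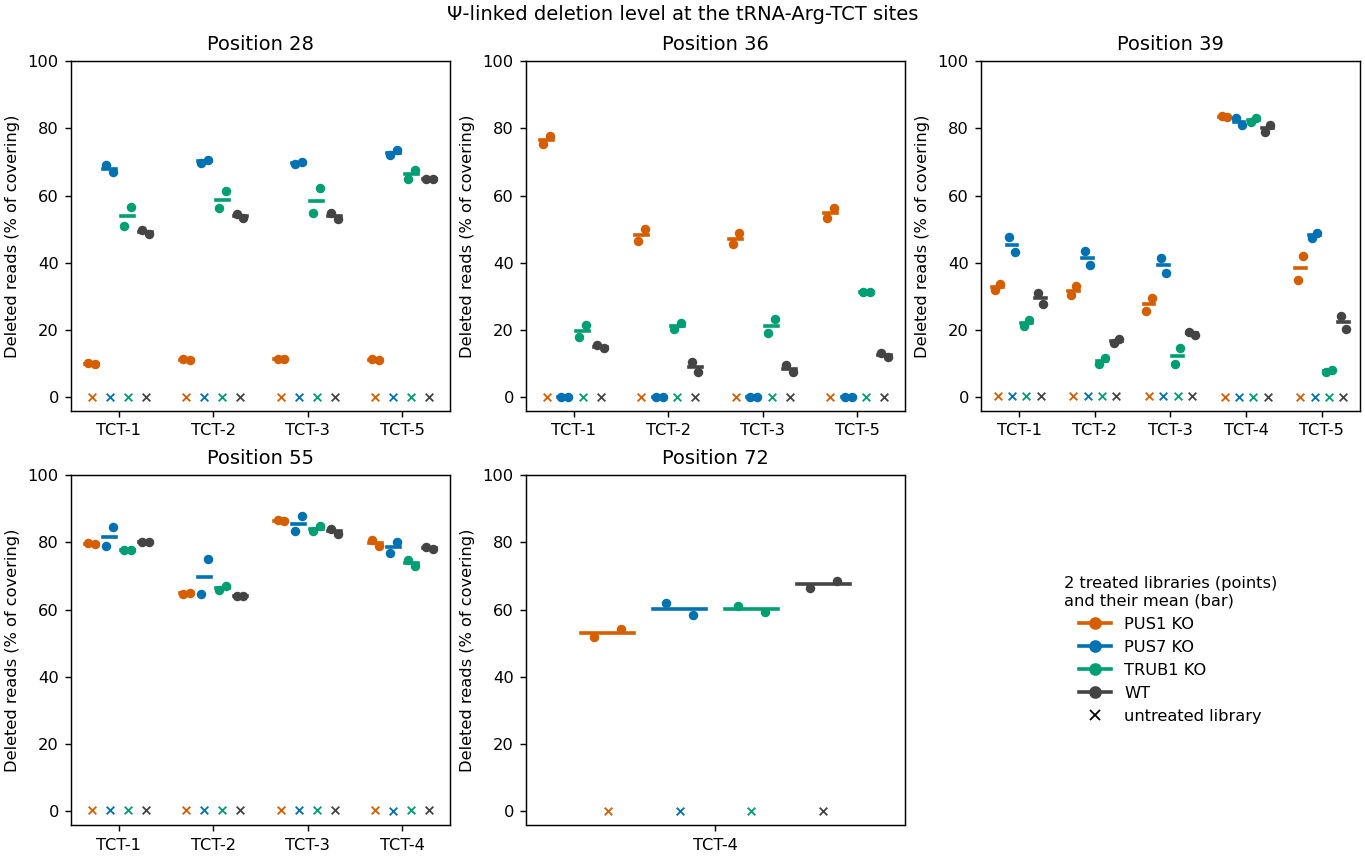
Level at each tRNA-Arg-TCT site, one panel per position, with isodecoders on the x axis and deleted reads as a percentage of covering reads on the y axis. Points are the 2 treated libraries of a genotype, bars their mean and crosses the untreated library. At position 28 the PUS1 KO libraries stand lowest, at 9.86% to 11.4%. At position 36 the PUS1 KO libraries stand highest and the PUS7 KO libraries lie at 0% to 0.152%.

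In WT cells the family carried a moderate level at position 28, a low level at position 36 and a level at position 39 that split the isodecoders. Position 28 stood at 49.2% ± 0.848 in tRNA-Arg-TCT-1, 54.0% ± 0.684 in tRNA-Arg-TCT-2, 53.9% ± 1.20 in tRNA-Arg-TCT-3 and 65.0% ± 0.0341 in tRNA-Arg-TCT-5 (SD, n = 2 each). The libraries of tRNA-Arg-TCT-2 and -3 overlapped, while tRNA-Arg-TCT-1 lay below both and tRNA-Arg-TCT-5 above both. Over the other 81 tRNAs listed at position 28 the median was 26.7%, and 7 of them stood above tRNA-Arg-TCT-5.

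At position 39 the WT levels were 29.4% ± 2.40 in tRNA-Arg-TCT-1, 16.8% ± 0.775 in tRNA-Arg-TCT-2, 19.0% ± 0.746 in tRNA-Arg-TCT-3, 80.0% ± 1.42 in tRNA-Arg-TCT-4 and 22.3% ± 2.68 in tRNA-Arg-TCT-5 (SD, n = 2 each). tRNA-Arg-TCT-4 thus stood apart from the other 4 isodecoders by more than the spread between libraries. The median of the other 116 tRNAs listed at position 39 was 60.7%. Of these, 33 stood above tRNA-Arg-TCT-4, and 87 to 108 stood above each of the other 4 isodecoders.

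At position 55 the WT levels ran from 64.2% ± 0.0165 in tRNA-Arg-TCT-2 to 83.3% ± 0.960 in tRNA-Arg-TCT-3 (SD, n = 2 each). Position 72 of tRNA-Arg-TCT-4 stood at 67.5% ± 1.66 (SD, n = 2), beside a median of 62.1% over 8 other arginine tRNAs.

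Without PUS1, the family lost most of its Ψ signal at position 28, and position 36 rose in each of the 4 isodecoders listed there. Of the 18 sites, 5 fell, namely position 28 of 4 isodecoders and position 72 of tRNA-Arg-TCT-4. Another 5 rose, namely position 36 of the same 4 isodecoders and position 39 of tRNA-Arg-TCT-2. A site was called when its adjusted p was under 0.05 in a model of deleted and undeleted reads fitted over all cytosolic sites and its level differed by at least 10 percentage points. Over the whole table, 16.0% of sites were called lower in PUS1 KO and 7.7% higher. The median difference, PUS1 KO minus WT, was 3.27 points over the 18 sites and 0.0251 points over all 701 sites tested.

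Position 28 of tRNA-Arg-TCT-1 had deletions in 1275 of 12516 reads (10.2%) and in 9.86% of 11788 reads in PUS1 KO, against 771 of 1549 (49.8%) and 48.6% of 1649 in WT. The same position stood at 11.4% and 11.1% in PUS1 KO and at 54.4% and 53.5% in WT for tRNA-Arg-TCT-2. The groups did not overlap in either isodecoder, and the libraries of 1 genotype lay close together. For tRNA-Arg-TCT-3 the levels were 11.4% and 11.3% in PUS1 KO, against 54.8% and 53.1% in WT. For tRNA-Arg-TCT-5 they were 11.3% and 11.1% in PUS1 KO, against 65.1% and 65.0% in WT. The differences were −39.2 ± 1.10, −42.7 ± 1.55, −42.6 ± 1.56 and −53.8 ± 1.68 points (SE) for tRNA-Arg-TCT-1, -2, -3 and -5. The mean levels of the isodecoders spanned 10.0% to 11.3% in PUS1 KO, against 49.2% to 65.0% in WT, and those in PUS1 KO were still above the 0.146% to 0.182% of the untreated PUS1 KO library.

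Over the other 81 tRNAs tested at position 28, the median level was 2.10% in PUS1 KO and 26.7% in WT, with a median difference of −23.5 points and 55 sites called lower. The other 2 arginine tRNAs there differed by −22.3 and −12.1 points, both called. The 3 tRNAs whose difference lay closest to the tRNA-Arg-TCT median of −42.6 points were tRNA-Cys-GCA-16 at −42.4, tRNA-Gln-CTG-4 at −43.0 and tRNA-Val-CAC-6 at −41.8 points. tRNA-Gln-CTG-4 stood at 1.97% ± 0.0668 in PUS1 KO and at 45.0% ± 0.0665 in WT (SD, n = 2 each). tRNA-Val-CAC-6 stood at 29.8% ± 0.325 in PUS1 KO and at 71.7% ± 1.10 in WT. The WT libraries of tRNA-Cys-GCA-16 lay further apart, with levels of 1.16% ± 0.688 in PUS1 KO and 43.6% ± 11.1 in WT.

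Position 36 moved the other way. In tRNA-Arg-TCT-1, 1535 of 2041 reads (75.2%) and 77.9% of 2226 reads were deleted in PUS1 KO, against 90 of 580 (15.5%) and 93 of 638 (14.6%) in WT. In tRNA-Arg-TCT-2 the levels were 46.5% and 50.1% in PUS1 KO, against 10.6% and 7.47% in WT. Both isodecoders had PUS1 KO libraries far above the WT ones. In tRNA-Arg-TCT-3 the levels were 45.5% and 48.8% in PUS1 KO, against 9.68% and 7.44% in WT. In tRNA-Arg-TCT-5 they were 53.4% and 56.2% in PUS1 KO, against 8 of 61 reads (13.1%) and 11 of 91 reads (12.1%) in WT. No library of one genotype overlapped the other in any of the 4. The differences were 61.5 ± 1.79, 39.2 ± 2.41, 38.6 ± 2.20 and 42.2 ± 3.69 points (SE). In both genotypes tRNA-Arg-TCT-1 was the highest of the 4.

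Position 39 was less affected. tRNA-Arg-TCT-2 stood at 30.4% and 33.2% in PUS1 KO, against 16.2% and 17.3% in WT, a rise of 15.0 ± 1.76 points (SE). tRNA-Arg-TCT-5 stood at 35.0% and 41.9% in PUS1 KO, against 24.2% and 20.5% in WT, a difference of 16.1 ± 6.93 points (SE) that was not called at 33 and 44 WT reads. Limma on the levels and a Fisher's exact test of pooled reads both called it higher. tRNA-Arg-TCT-3 differed by 8.64 points, tRNA-Arg-TCT-1 by 3.41 and tRNA-Arg-TCT-4 by 3.39 points, all of them PUS1 KO minus WT and not called. Over the other tRNAs at position 39, 26 of 113 sites were called higher and 2 lower. Position 55 was called in none of its 4 isodecoders, with differences between −0.498 and 3.15 points.

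Position 72 of tRNA-Arg-TCT-4 stood at 51.8% and 54.2% in PUS1 KO, against 66.3% and 68.7% in WT, a called difference of −14.5 ± 1.82 points (SE). The libraries did not overlap. None of the other 8 arginine tRNAs listed at position 72 was called, and their differences ran from −6.54 to −0.133 points. Whichever of the 4 libraries was left out, 5 tRNA-Arg-TCT sites were called lower and 5 or 6 higher.

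**Figure D2:**
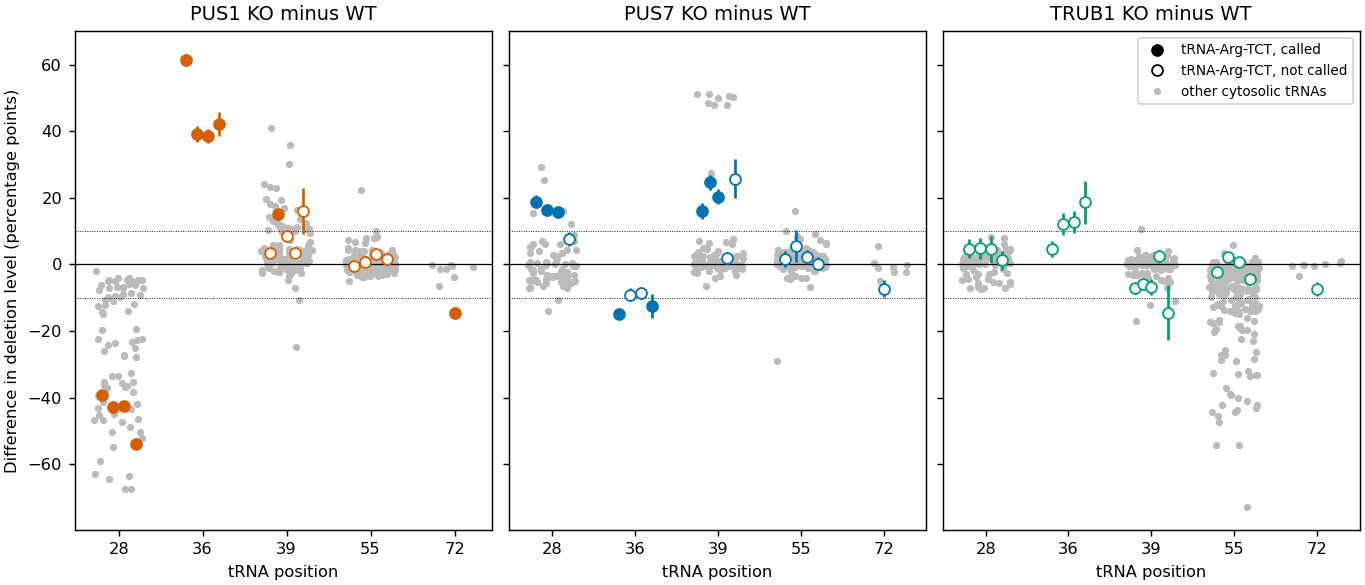
Difference in level from WT, in percentage points, for PUS1 KO, PUS7 KO and TRUB1 KO, by tRNA position. Large circles are tRNA-Arg-TCT sites with their standard error, filled where called and open where not. Small grey points are the other cytosolic tRNAs at the same position and dotted lines mark 10 points. In PUS1 KO, position 36 lies between 38.6 and 61.5 points and position 28 between −53.8 and −39.2 points.

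Without PUS7, position 36 stood at the level of the untreated libraries, while positions 28 and 39 stood higher than in WT. Of the 18 sites, 2 were called lower, position 36 of tRNA-Arg-TCT-1 and -5, where 11.0% of all sites in the table were called lower. Another 6 were called higher, positions 28 and 39 of tRNA-Arg-TCT-1, -2 and -3, where 2.86% of all sites were called higher. The median difference, PUS7 KO minus WT, was 3.94 points over the 18 sites and 0.336 points over all 700 sites tested. This comparison uses the same WT libraries as those of PUS1 KO and TRUB1 KO. These calls were lost when either WT library was left out. In tRNA-Arg-TCT-1, without the first and without the second WT library, the difference was −14.4 and −15.4 points at position 36. It was then 19.5 and 18.3 points at position 28, and 17.7 and 14.3 points at position 39.

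At position 36 of tRNA-Arg-TCT-1, 7 of 4619 reads (0.152%) and 8 of 6447 reads (0.124%) were deleted in PUS7 KO, against 15.5% and 14.6% in WT. In tRNA-Arg-TCT-2 the PUS7 KO libraries had 1 deletion in 1820 reads (0.0549%) and 0 in 2672, which allows a level of up to 0.112%, against 23 of 216 (10.6%) and 23 of 308 reads (7.47%) in WT. The PUS7 KO libraries lay within or below the 0.137% to 0.170% found in the untreated PUS7 KO library at this position. In tRNA-Arg-TCT-3 there was 1 deletion in 1796 reads (0.0557%) and 0 in 2623 in PUS7 KO, which allows up to 0.114%, against 9.68% and 7.44% in WT. In tRNA-Arg-TCT-5 there was 1 in 1065 (0.0939%) and 0 in 1759 in PUS7 KO, which allows up to 0.171%, against 13.1% and 12.1% in WT. No library of PUS7 KO came near a WT library in these 4 isodecoders. The differences were −14.9 ± 1.20 points for tRNA-Arg-TCT-1 and −12.6 ± 3.62 points for tRNA-Arg-TCT-5 (SE). For tRNA-Arg-TCT-2 and -3 they were −9.03 ± 1.87 and −8.53 ± 1.72 points (SE), less than the 10 points a call needs, since the WT levels themselves were below 10%. The limits above cover counting error only.

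Position 28 stood at 69.1% and 67.0% in PUS7 KO, against 49.8% and 48.6% in WT, in tRNA-Arg-TCT-1. In tRNA-Arg-TCT-2 it stood at 69.8% and 70.7% in PUS7 KO, against 54.4% and 53.5% in WT. In tRNA-Arg-TCT-3 it stood at 69.5% and 70.1% in PUS7 KO, against 54.8% and 53.1% in WT. The groups did not overlap, and the rises were 18.9 ± 1.88, 16.3 ± 1.77 and 15.9 ± 1.77 points (SE). tRNA-Arg-TCT-5, the highest in WT, stood at 72.1% and 73.6% in PUS7 KO, against 65.1% and 65.0% in WT, and its difference of 7.77 points was not called. Over the other 80 tRNAs tested at position 28 the median difference was −1.78 points, with 3 called higher and 0 lower. The 3 other tRNAs whose difference lay closest to the tRNA-Arg-TCT median of 16.1 points were tRNA-Val-AAC-1 at 16.0 points and tRNA-Val-TAC-4 at 12.1 points, both called, and tRNA-Val-AAC-3 at 15.5 points, which was not.

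Position 39 stood at 47.6% and 43.2% in PUS7 KO, against 31.1% and 27.7% in WT, in tRNA-Arg-TCT-1. In tRNA-Arg-TCT-2 it stood at 43.5% and 39.5% in PUS7 KO, against 16.2% and 17.3% in WT. In tRNA-Arg-TCT-3 it stood at 41.6% and 37.1% in PUS7 KO, against 19.5% and 18.5% in WT. The PUS7 KO libraries were all above the WT ones, and the rises were 16.0 ± 2.41, 24.7 ± 2.21 and 20.4 ± 2.26 points (SE). tRNA-Arg-TCT-5 stood at 47.4% and 49.0% in PUS7 KO, against 24.2% and 20.5% in WT. Its difference of 25.8 ± 5.91 points (SE) rested on 33 and 44 WT reads and was not called, although limma on the levels and a Fisher's exact test both called it higher. tRNA-Arg-TCT-4 stood at 83.0% and 80.9% in PUS7 KO, against 79.0% and 81.0% in WT, so that the groups overlapped. Over the other tRNAs at position 39, 9 of 113 sites were called higher and the median difference was 0.618 points. Their differences ran from −6.54 to 51.15 points. Among the 9 other arginine tRNAs there, 1 was called higher, and the differences ran from −3.47 to 27.5 points.

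At position 55 the PUS7 KO libraries differed among themselves. tRNA-Arg-TCT-2 stood at 64.6% and 75.0% in PUS7 KO, against 64.2% and 64.2% in WT. The second PUS7 KO library was also the higher one in the other 3 isodecoders, at 84.5% beside 79.0% in tRNA-Arg-TCT-1, 87.8% beside 83.4% in tRNA-Arg-TCT-3 and 80.2% beside 77.0% in tRNA-Arg-TCT-4. No difference was called at this position. Without the first PUS7 KO library, tRNA-Arg-TCT-2 would be 10.8 points above WT and called. Position 72 of tRNA-Arg-TCT-4 stood at 62.1% and 58.3% in PUS7 KO, against 66.3% and 68.7% in WT, a difference of −7.29 points that was not called.

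Without TRUB1, no tRNA-Arg-TCT site was called in either direction. The limma-moderated model called 0 of 18 sites, where 11.1% of all sites in the table were called lower and 0.428% higher. At an unadjusted p under 0.05 it had 6 of the 18 sites lower and 4 higher, beside 245 lower and 69 higher of all 701 sites. Limma on the levels themselves and a Fisher's exact test of pooled reads each called 1 lower and 3 higher. The median difference, TRUB1 KO minus WT, was 1.72 points over the 18 sites and −0.386 points over all 701 sites tested.

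Position 55, the place TRUB1 is known for, stood at 77.9% and 77.8% in TRUB1 KO, against 80.2% and 80.0% in WT, in tRNA-Arg-TCT-1. It stood at 65.8% and 67.0% in TRUB1 KO, against 64.2% and 64.2% in WT, in tRNA-Arg-TCT-2, and at 83.3% and 84.7% in TRUB1 KO, against 84.0% and 82.6% in WT, in tRNA-Arg-TCT-3. In tRNA-Arg-TCT-4 it stood at 74.7% and 73.1% in TRUB1 KO, against 78.7% and 78.0% in WT. The libraries overlapped in tRNA-Arg-TCT-3 alone, but the sizes were small, at −2.29 ± 0.248, 2.18 ± 0.764, 0.710 ± 0.811 and −4.39 ± 1.34 points (SE). Only the first had an adjusted p under 0.05, at 0.00321 in the limma-moderated quasi-binomial model with Benjamini-Hochberg adjustment, and it was below the 10 points a call needs. Over the other 234 tRNAs tested at position 55, 77 were called lower and the median difference was −6.47 points. None of the other 14 arginine tRNAs there was called, and their differences ran from −3.74 to 0.794 points.

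At position 36 the mean level was higher in TRUB1 KO than in WT in the isodecoders listed there, which may share reads. tRNA-Arg-TCT-1 had 18.1% and 21.4% in TRUB1 KO, against 15.5% and 14.6% in WT. tRNA-Arg-TCT-2 had 20.2% and 22.2% in TRUB1 KO, against 10.6% and 7.47% in WT. Neither site was called. tRNA-Arg-TCT-3 had 19.3% and 23.3% in TRUB1 KO, against 9.68% and 7.44% in WT. tRNA-Arg-TCT-5 had 30 of 96 reads (31.3%) and 26 of 83 reads (31.3%) in TRUB1 KO, against 13.1% and 12.1% in WT. The differences were 4.71 ± 2.41, 12.1 ± 3.29, 12.7 ± 3.37 and 18.7 ± 6.40 points (SE), with adjusted p of 0.246, 0.0577, 0.0576 and 0.104 in the limma-moderated model. Both of those tests called the last 3 of them, and the model itself called tRNA-Arg-TCT-3 without the first TRUB1 KO library.

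At position 39 the 4 isodecoders other than tRNA-Arg-TCT-4 stood lower. tRNA-Arg-TCT-1 had 21.4% and 23.1% in TRUB1 KO, against 31.1% and 27.7% in WT. tRNA-Arg-TCT-2 had 10.0% and 11.6% in TRUB1 KO, against 16.2% and 17.3% in WT, and tRNA-Arg-TCT-3 had 10.0% and 14.5% in TRUB1 KO, against 19.5% and 18.5% in WT. None of the 3 was called. Their differences were −7.20 ± 1.53, −5.94 ± 1.72 and −6.72 ± 2.34 points (SE), with adjusted p of 0.0285, 0.0625 and 0.104 in the limma-moderated model. tRNA-Arg-TCT-4 stood at 82.0% and 83.0% in TRUB1 KO, against 79.0% and 81.0% in WT. Its difference of 2.48 points was not called. Over the other tRNAs at position 39, 1 of 113 sites was called lower and the median difference was 0.0818 points. Their differences ran from −17.1 to 10.8 points, and those of the 9 other arginine tRNAs from −10.9 to 1.27 points.

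At position 28 the TRUB1 KO minus WT differences were 4.68, 4.81, 4.61 and 1.25 points for tRNA-Arg-TCT-1, -2, -3 and -5, none called, with adjusted p of 0.304 or more in the limma-moderated model. The other tRNAs closest to the median of 4.64 points were tRNA-Ser-GCT-4 at 4.74, tRNA-Gln-CTG-2 at 4.78 and tRNA-Ser-GCT-1 at 4.40 points, none of them called. Position 72 of tRNA-Arg-TCT-4 stood at 61.1% and 59.2% in TRUB1 KO, against 66.3% and 68.7% in WT, a difference of −7.34 ± 2.11 points (SE) with an adjusted p of 0.0659 in the same model.

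Position 39 of tRNA-Arg-TCT-5 is the site that the authors' deposited tables name as dependent on both TRUB1 and RPUSD1, and it is the shallowest of the 18. It had 3 of 67 reads (4.48%, 95% exact interval 0.933% to 12.5%) and 3 of 33 reads (9.09%, 1.92% to 24.3%) deleted in RPUSD1 KO. In TRUB1 KO it had 3 of 40 reads (7.5%, 1.57% to 20.4%) and 3 of 37 reads (8.11%, 1.70% to 21.9%). In WT it had 8 of 33 reads (24.2%, 11.1% to 42.3%) and 9 of 44 reads (20.5%, 9.80% to 35.3%). All 4 knockout libraries lay below both WT libraries, and the interval of each knockout library overlapped that of each WT library. The intervals cover counting error only.

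The TRUB1 KO minus WT difference at this site was −14.5 ± 8.29 points (SE) and was not called, with an adjusted p of 0.285 in the limma-moderated model. Limma on the levels and a Fisher's exact test of pooled reads called it lower. The pooled test leaves out the spread between libraries. The authors' tables already name the site as dependent on TRUB1, so these calls are descriptions and not independent evidence. RPUSD1 KO averaged 6.78% ± 3.26 and WT 22.3% ± 2.68 (SD, n = 2 each), a difference of −15.6 points with no test, since the RPUSD1 table holds 16 sites that the authors had chosen as dependent and this is the 1 tRNA-Arg-TCT site in it. The levels come from separate tables. The authors' deposited RPUSD1 table gives a WT mean difference in deletion rate of 16.9 points and a change of −10.2 points for the site. Their PUS1 and PUS7 tables give a WT mean difference of 22.1 points. These values are differences of deletion rate and not the levels used here, and the untreated WT library had 0.231% at this site. The WT values of 16.9 and 22.1 points thus differ on the same measure, and the reason is not given in the sources used here.

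**Figure D3:**
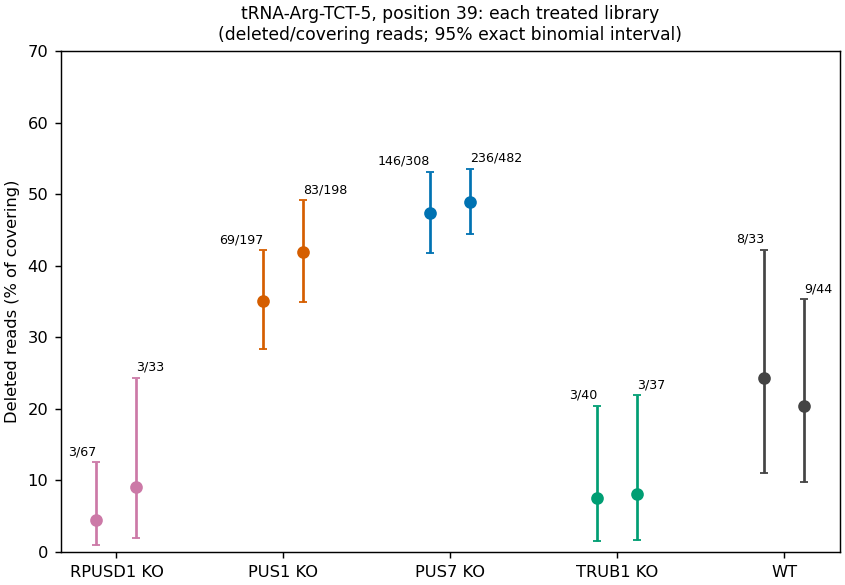
Position 39 of tRNA-Arg-TCT-5 in each treated library of RPUSD1 KO, PUS1 KO, PUS7 KO, TRUB1 KO and WT, with deleted reads as a percentage of covering reads on the y axis. Whiskers are 95% exact binomial intervals and the fractions give deleted over covering reads. The RPUSD1 KO and TRUB1 KO libraries, each with 3 deleted reads, stand at 4.48% to 9.09% and the WT libraries at 20.5% and 24.2%.

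The authors' deposited tables label position 28 of all 4 isodecoders as PUS1-dependent and position 36 of all 4 as PUS7-dependent. They label position 36 as independent of PUS1 and of TRUB1, position 72 of tRNA-Arg-TCT-4 as independent of PUS1, and position 55 as independent of TRUB1. The rule behind these labels is not given in the sources used here. Position 36 thus carries the label of a PUS1-independent site, and its level was higher in PUS1 KO than in WT.

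Read as an order of genotypes, the same ranking held for the mean level in 4 of 4 isodecoders at position 28, with PUS7 KO highest, then TRUB1 KO, then WT, then PUS1 KO. At position 36 it was PUS1 KO, then TRUB1 KO, then WT, then PUS7 KO in 4 of 4. At position 39 it was PUS7 KO, then PUS1 KO, then WT, then TRUB1 KO in 4 of 5, all but tRNA-Arg-TCT-4. The isodecoders may share reads, as described below, so these tallies do not count independent observations. The difference between the neighbours TRUB1 KO and WT was not called in any isodecoder at positions 28, 36 or 39. At position 39, PUS1 KO against WT was called in tRNA-Arg-TCT-2 alone. PUS7 KO against PUS1 KO was called there in tRNA-Arg-TCT-1 alone. How many other tRNAs have the same rankings was not counted. PUS7 KO and TRUB1 KO, neighbours at position 28, were not compared directly.

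The direct comparisons of knockouts share libraries with those above. Set against PUS1 KO, PUS7 KO had 4 lower and 5 higher tRNA-Arg-TCT sites, where 16.0% of all sites were called lower and 16.8% higher. Position 36 stood at 0.152% and 0.124% in PUS7 KO and at 75.2% and 77.9% in PUS1 KO in tRNA-Arg-TCT-1, a difference of −76.4 ± 1.04 points (SE). The differences in tRNA-Arg-TCT-2, -3 and -5 were −48.3, −47.1 and −54.7 points. At position 28 they were 58.0, 59.0, 58.4 and 61.6 points for tRNA-Arg-TCT-1, -2, -3 and -5, PUS7 KO minus PUS1 KO. Closest to their median of 58.7 points among other tRNAs were tRNA-Gln-CTG-1 at 59.3, tRNA-Gln-TTG-4 at 57.8 and tRNA-Gln-CTG-2 at 60.6 points. Position 72 of tRNA-Arg-TCT-4 was not called, at 7.22 ± 2.04 points (SE), PUS7 KO minus PUS1 KO. At position 39 only tRNA-Arg-TCT-1 was called, at 12.6 ± 2.10 points (SE), and this call was lost without either PUS1 KO library.

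Set against PUS1 KO, TRUB1 KO had 8 lower and 4 higher tRNA-Arg-TCT sites, where 19.4% of all sites were called lower and 16.8% higher. At position 36, TRUB1 KO minus PUS1 KO was −56.8, −27.1, −25.8 and −23.5 points in tRNA-Arg-TCT-1, -2, -3 and -5. At position 39 it was −10.6, −21.0, −15.4 and −30.7 points in the same isodecoders. Position 28 was higher in TRUB1 KO by 43.8, 47.5, 47.2 and 55.1 points. The other tRNAs closest to that median of 47.3 points were tRNA-Ser-AGA-1 at 47.5, tRNA-Val-AAC-4 at 46.6 and tRNA-Gln-TTG-4 at 46.1 points. Position 72 of tRNA-Arg-TCT-4 was not called, at 7.17 ± 1.75 points (SE), TRUB1 KO minus PUS1 KO. In tRNA-Arg-TCT-5 the calls at positions 36 and 39 were lost without any 1 of the 4 libraries, while that at position 28 was kept. The call at position 39 of tRNA-Arg-TCT-1 was lost at −9.73 points without the first TRUB1 KO library and at −9.82 points without the second PUS1 KO library.

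Reads covering the anticodon arm also differed in number between genotypes, and at position 36 their order was not that of the levels. At position 36 of tRNA-Arg-TCT-1, covering reads in the treated libraries were 3.45% and 4.21% of those at position 55 in PUS1 KO, 8.28% and 9.58% in PUS7 KO, 1.27% and 0.834% in TRUB1 KO, and 1.10% and 1.27% in WT. In the untreated libraries of these genotypes they were 80.8% to 84.1%. Far fewer reads thus covered the anticodon than position 55 in treated libraries, and the shares were lowest in WT and TRUB1 KO. At position 39 of tRNA-Arg-TCT-2 and tRNA-Arg-TCT-3, however, the shares followed the order of the mean levels. In tRNA-Arg-TCT-2 they were 12.8% and 14.3% in PUS7 KO and 10.2% and 11.0% in PUS1 KO. There they were 7.98% and 8.16% in WT and 6.59% and 5.84% in TRUB1 KO. In tRNA-Arg-TCT-1 the shares of the PUS1 KO and WT libraries overlapped at position 39.

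At position 28 of tRNA-Arg-TCT-1 the share was 21.2% and 22.3% in PUS1 KO, 10.0% and 12.7% in PUS7 KO, 3.83% and 3.18% in TRUB1 KO, and 2.95% and 3.29% in WT. In tRNA-Arg-TCT-2 it was 88.2% and 87.9% in PUS1 KO, against 5.85% and 6.36% in WT. The medians of the other 78 tRNAs with both positions were 40.4% and 41.9% in PUS1 KO, 26.5% and 24.5% in PUS7 KO, 23.5% and 23.8% in TRUB1 KO, and 13.2% and 15.3% in WT. A higher share in PUS1 KO was therefore also seen outside tRNA-Arg-TCT.

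Within tRNA-Arg-TCT-2, position 28 was covered by 8.64 and 8.01 times as many reads as position 39 in the PUS1 KO libraries, against 0.733 and 0.780 times in the WT libraries. The ratio was 2.03 and 2.00 in PUS1 KO and 0.273 and 0.313 in WT for tRNA-Arg-TCT-1. For tRNA-Arg-TCT-3 it was 4.15 and 4.02 in PUS1 KO and 0.490 and 0.580 in WT. In the untreated libraries of the 4 genotypes these 3 isodecoders had ratios between 0.904 and 0.959. Over 49 other tRNAs the median ratio was 0.823 and 0.836 in PUS1 KO, against 0.337 and 0.367 in WT, and 17 of the 49 exceeded 1 in both PUS1 KO libraries. In these 3 isodecoders position 28 thus had more covering reads than position 39 in PUS1 KO and fewer in WT. In PUS7 KO the ratio was also above 1 in tRNA-Arg-TCT-2, at 1.30 and 1.58, and in tRNA-Arg-TCT-3, at 1.06 and 1.32. In tRNA-Arg-TCT-1 it was 0.733 and 0.863 in PUS7 KO. For tRNA-Arg-TCT-5 the ratio was above 1 in every library, at 43.8 and 40.3 in PUS1 KO and at 15.8 and 12.0 in WT, and at 1.55 to 1.68 in the untreated libraries of the 4 genotypes. The part of this coverage in the differences at positions 28, 36 and 39 was not tested.

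**Figure D4:**
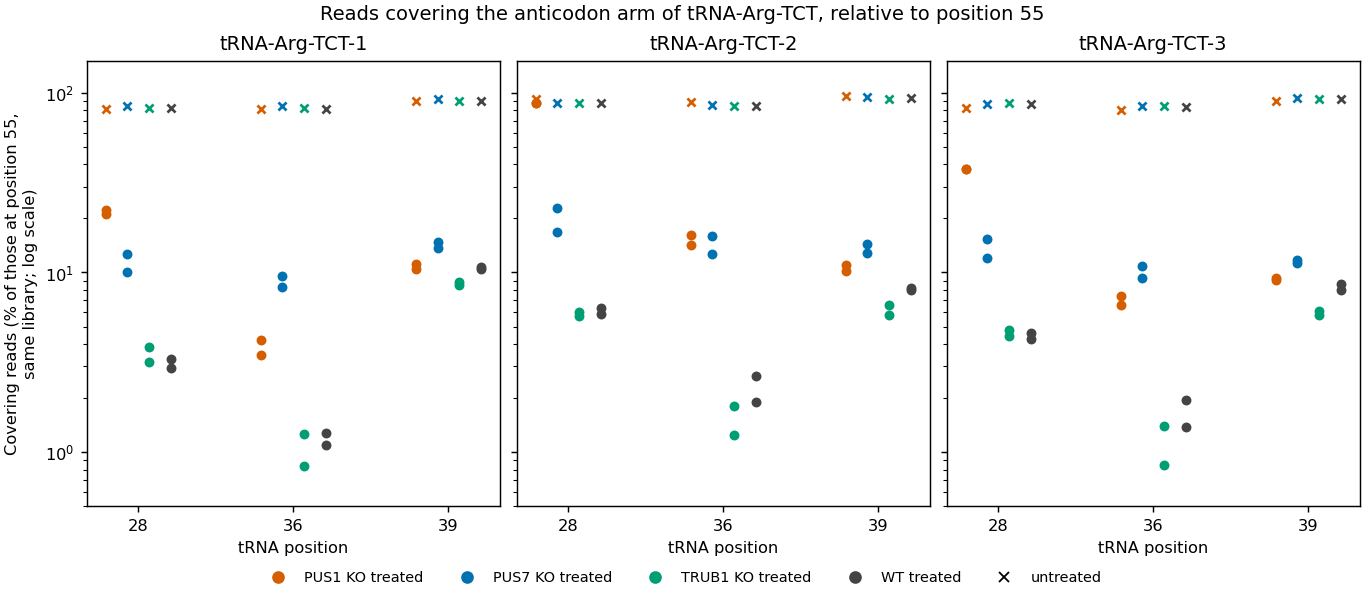
Reads covering positions 28, 36 and 39 as a percentage of those covering position 55 of the same library (y axis, log scale), for tRNA-Arg-TCT-1, -2 and -3. Circles are the 2 treated libraries of PUS1 KO, PUS7 KO, TRUB1 KO and WT and crosses their untreated library. At position 36 of tRNA-Arg-TCT-1 the treated libraries lie between 0.834% and 9.58%, and the untreated ones between 80.8% and 84.1%.

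The isodecoders may also share reads and are not independent of each other. Covering reads of tRNA-Arg-TCT-3 were 0.962 to 1.02 times those of tRNA-Arg-TCT-2 at position 28 in the 8 treated libraries, and 0.850 to 1.10 times at position 36, but 1.26 to 2.38 times at position 55. Covering reads of tRNA-Arg-TCT-5 were 0.716 to 0.970 times those of tRNA-Arg-TCT-2 at position 28 in the treated libraries, against 0.134 to 0.208 times in the 4 untreated libraries. The near-equal levels of tRNA-Arg-TCT-2, -3 and -5 at position 28 in PUS1 KO, 11.3%, 11.3% and 11.2%, stand beside these ratios, and how reads were assigned among isodecoders is not given in the sources used here.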

How the data were processed

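Small RNA of HEK293T cells was read by PRAISE, and 15 of the 27 samples in the series were used. Counts come from the deposited tables, which hold, per the file headers, deleted and covering reads at each site and library. The authors also deposited differences of deletion rate in percent. Tools named in the submitters' processing notes are BWA and SAMtools 1.14, beside UMI-tools 1.0.0 and cutadapt, with build GRCh38. How sites were filtered and how reads were shared among isodecoders is not given in the sources used here. Levels are deleted over covering reads. Sites with at least 20 covering reads in each treated library were tested with a quasi-binomial model of counts, its dispersion moderated across the whole table with limma 3.58.1 (squeezeVar, R 4.3.3) and kept at 1 or more, with a two-sided F test, and p-values were adjusted by Benjamini-Hochberg. A call needs an adjusted p under 0.05 and 10 points. The model was run on simulated data with a fixed spread between libraries that was not estimated from these data. That run therefore does not show how the model performs at the spread seen here. All 18 tRNA-Arg-TCT sites are named, and at position 28 the 3 other tRNAs closest to their median difference. Members and lists were chosen with earlier results of these data known. Median covering reads per site were 14202 to 24711 in the treated libraries of the 4 full tables. Alternatives were other tests, coverage minimums and thresholds, a replicate block, background subtraction and leaving out libraries.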

Additional observations from a re-analysis of the deposited data

Results flagged for a closer look

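At 5 tRNA-Arg-TCT sites PUS1 KO and PUS7 KO were called in opposite directions against WT, and the difference between the knockouts themselves was called in the fit over all sites. The PUS7 KO calls against WT were lost without either WT library. At position 36, PUS7 KO minus PUS1 KO was −76.4 points in tRNA-Arg-TCT-1 and −54.7 points in tRNA-Arg-TCT-5. At position 28, PUS7 KO minus PUS1 KO was 58.0 points in tRNA-Arg-TCT-1, 59.0 in tRNA-Arg-TCT-2 and 58.4 in tRNA-Arg-TCT-3. Both knockouts were set against the same 2 WT libraries.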

How the results depend on the processing

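In PUS7 KO against WT, the 2 lower calls became 1 with at least 100 covering reads, 4 at a threshold of 5 points and 0 at 20 points. The 6 higher calls became 2 at 20 points. With the replicate block these PUS7 KO counts were 1 and 3, although the numbers do not pair the samples: deviations of same-numbered libraries correlated at −0.206 to 0.0819 over sites in the 5 comparisons. Leaving out 1 library, where the lone one is assumed to vary like the others, gave 0 to 2 lower and 0 to 7 higher calls. In TRUB1 KO against WT, limma on the levels and a Fisher's exact test of pooled reads each gave 1 lower and 3 higher calls against 0 and 0, a threshold of 5 points gave 1 lower, and leaving out 1 library gave 0 lower and 0 to 1 higher. In TRUB1 KO against PUS1 KO the 8 lower calls became 5 to 6 without 1 library. The RPUSD1 KO difference of −15.6 points was −10.2 with the WT mean difference in deletion rate of the authors' deposited table. The cause of these changes was not tested.

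Reversals occurred when 1 library was left out, all at sites not called. PUS7 KO minus WT at position 55 then ranged from −1.11 to 4.32 points in tRNA-Arg-TCT-1 and from −1.33 to 1.92 in tRNA-Arg-TCT-4. PUS7 KO minus PUS1 KO there ranged from −0.609 to 4.82 points in tRNA-Arg-TCT-1, from −0.269 to 10.2 in tRNA-Arg-TCT-2, from −3.11 to 1.34 in tRNA-Arg-TCT-3 and from −2.93 to 0.325 in tRNA-Arg-TCT-4. TRUB1 KO minus WT at position 28 of tRNA-Arg-TCT-5 ranged from −0.0431 to 2.55 points.

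Over the whole table, higher calls in PUS1 KO against WT were 24 at 20 points instead of 54. Higher calls in PUS7 KO were 9 without either WT library and 13 at 20 points instead of 20. Lower calls in TRUB1 KO were 132 at 5 points and 31 at 20 instead of 78. Higher calls there were 9 by either of these tests, 6 without the first TRUB1 KO library, 10 at 5 points and 0 at 20 instead of 3. Lower calls in TRUB1 KO against PUS1 KO were 59 at 20 points instead of 136. Leaving out tRNA-Arg-TCT-3, chosen after seeing the data, as was the comparison of covering reads with position 55, gave 4 lower and 4 higher calls in PUS1 KO and 2 lower and 4 higher in PUS7 KO against WT. Depth limits position 39 of tRNA-Arg-TCT-5 most, with 33 to 67 covering reads in RPUSD1 KO, TRUB1 KO and WT.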
